A study of Mus musculus with 21 samples.

Results

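The 1548 peaks described here are regions of open chromatin that were read mainly in endothelial cells of the brain, in a comparison with endothelial cells of lung and liver. They were chosen from the 58796 autosomal peaks of a table of 60119 peaks and made up 2.63% of the autosomal peaks. A peak entered when its mean over the brain libraries was at least 5 CPM (CPM are the reads of a peak scaled by the total reads in peaks of its library) and when that mean plus 0.5 CPM was at least 3 times the lung mean plus 0.5 and the liver mean plus 0.5. The brain, lung and liver levels of these peaks were therefore fixed by the choice, and they are given below as a description without a test. The same rule with lung or liver in the place of brain gave 624 and 2184 peaks. All cells came from C57BL/6J mice aged 2 to 4 months with no treatment named, and they were sorted from each organ as live cells with CD31 on their surface and without PDGFRβ, a pericyte protein, and CD45, a protein of blood cells. There were 4 brain, 4 lung and 3 liver ATAC libraries. A pair of lung libraries bear column numbers that could not be matched to a numbered sample. They are called lung a and lung b, and unnumbered below. The labels do not say whether libraries came from separate or pooled animals, so the spread between libraries may be technical, and the sort did not separate arteries, capillaries and veins. The brain cells alone had a spin in albumin to remove myelin. The count of chosen peaks depends on the scaling: with library sizes adjusted by the trimmed mean of M-values (TMM) 2350 peaks met the rule, all 1548 among them.

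ATAC-seq uses a transposase that inserts sequencing adapters where DNA is not wrapped tightly in nucleosomes, so that promoters, enhancers and other regulatory sites collect reads. Endothelial cells share a core set of such sites, and each vascular bed adds its own. Brain endothelium builds the blood-brain barrier, with sealed junctions, many nutrient carriers and little vesicle transport. Lung capillaries are built for gas exchange, and liver sinusoids have an open wall and clear proteins from blood. Sites that are open in a single cell type are known to lie mostly away from promoters and to occur in groups along a chromosome. The peak positions are in the mouse build mm9, counted from 1, and no annotation or genome of that build was used here, so the peaks carry no gene names and no sequence.

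The libraries held 5003580 to 17956240 reads in peaks in brain, 1244653 to 6046832 in lung and 1856763 to 2175575 in liver. At 1 read, a library's level was 0.0557 CPM in brain 1, the deepest, and 0.803 CPM in lung b, the shallowest. No pair of libraries of a tissue agreed within counting error: the mean chi-square per peak was 2.44 to 12.9, where sampling alone gives about 1. In the separate bulk RNA libraries of the same sorted types, all 8 endothelial markers had a mean of at least 1 CPM in every tissue, with sums per library of 6913 to 7551 CPM in brain, 9272 to 13009 in lung and 5018 to 5256 in liver. Markers of neurons, astrocytes, mural cells, oligodendrocytes and microglia each summed to less than the endothelial ones in brain RNA. The 6 markers of microglia and macrophages summed to 4.79 to 30.6 CPM. The 6 neuron markers summed to 4.68 to 15.2 CPM, the 6 astrocyte markers to 53.4 to 70.7, the 6 mural cell markers to 77.4 to 158 and the 6 oligodendrocyte markers to 3.4 to 37.3, with Mog, Mag and Olig2 at 0. Of the 6 hepatocyte genes Ttr alone had a mean of at least 1 CPM in brain RNA, with list sums of 46.1 to 961 CPM and with Alb, Apoa1, Cyp3a11 and Apob at 0. Not every marker of other cells was therefore low in brain, and which cells Ttr came from was not tested. The 4 erythroid markers summed to 31 to 262 CPM in brain, 5.35 to 70.2 in lung and 0.74 to 24 in liver. In lung RNA the 6 lung epithelium markers summed to 298 to 1791 CPM, the 6 leukocyte markers to 79.8 to 122 and the mural cell markers to 112 to 634, and in liver RNA the hepatocyte genes summed to 353 to 934 CPM and the mural cell markers to 68 to 93.4. The ATAC libraries have no such marker values, so the part of other cells in the peaks was not tested, and in bulk samples more cells with a site open and more open copies per cell cannot be told apart.

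In the brain libraries the chosen peaks held 5.45% to 5.95% of all reads in peaks, against 0.717% to 0.909% in lung and 1.05% to 1.4% in liver. The mean share was 5.75% ± 0.248 in brain (SD, n = 4), 0.819% ± 0.0889 in lung (SD, n = 4) and 1.26% ± 0.191 in liver (SD, n = 3). The peaks covered 1.07 Mb in all. The brain mean of a peak ranged from 5.11 to 405 CPM, with quartiles of 17, 28.3 and 45.5 CPM, and 67 peaks reached 100 CPM. The median lung mean was 3.79 CPM and the median liver mean 6.46 CPM. Levels in lung and liver were low but seldom nil: no peak was at 0 in all 4 lung libraries or in all 3 liver libraries.

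**Figure D1:**
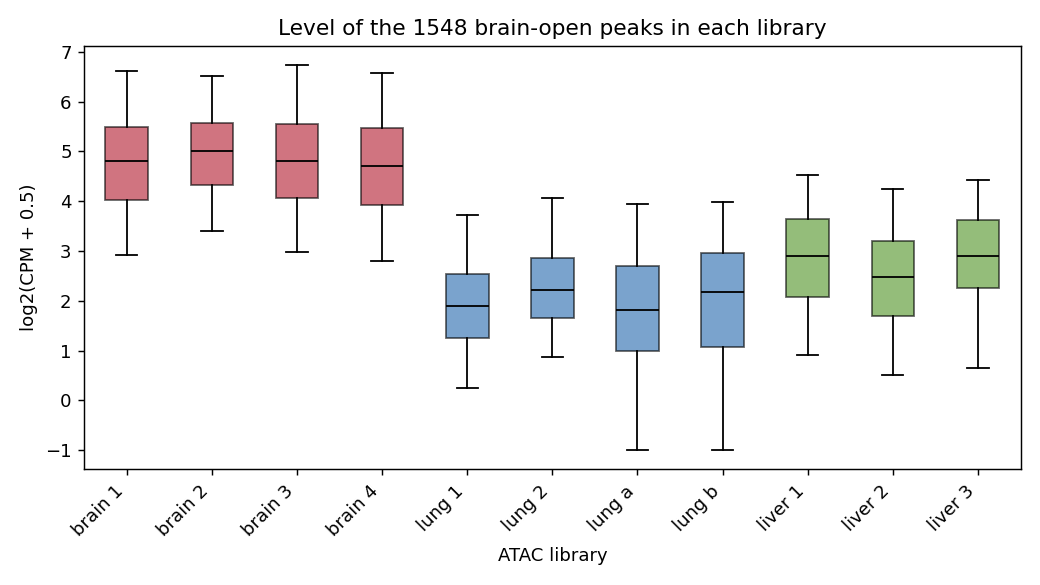
Level of the 1548 peaks in each ATAC library, as log2(CPM + 0.5), with boxes from the first to the third quartile, a line at the median and whiskers from the 5th to the 95th percentile. Library medians lie between 25.6 and 31.6 CPM in brain, 2.99 and 4.13 CPM in lung and 5.06 and 7 CPM in liver; the gap to brain was set by the choice of peaks.

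The excess in brain was moderate for most of the peaks. The brain mean plus 0.5 CPM exceeded the higher of the lung and liver means plus 0.5 CPM by a median factor of 3.85, with quartiles of 3.36 and 4.65. For 862 peaks (55.7%) the factor was under 4, for 290 it was at least 5, and for 16 at least 8. In 1297 of the 1548 peaks (83.8%) liver was the higher of the other tissues, so that the liver level mostly set the factor. The liver mean was above the lung mean in 64.5% of all autosomal peaks and in 58.4% of the other autosomal peaks with a brain mean of at least 5 CPM.

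The peaks with the highest brain level were wide and were also read in lung or liver. The peak at chr3:39118766-39120037 (1272 bp) had 319.7, 359, 522 and 417 CPM in brain libraries 1 to 4, 75.5, 78.9, 101 and 61.1 CPM in lung libraries 1, 2, a and b, and 123, 117 and 93.7 CPM in liver libraries 1 to 3. At chr16:87128043-87129373 (1331 bp) the brain libraries stood at 266, 253, 397 and 317 CPM, the lung libraries at 91.8, 68.5, 124 and 90.8 CPM and the liver libraries at 79.1, 80.4 and 64.1 CPM. These 2 peaks were well above most of the set in every tissue, and their factors of 3.63 and 3.27 were near the lower limit of the rule. Reads at chr6:66310665-66311979 (1315 bp) came to 222, 269, 331 and 271 CPM in brain, 5.97, 6.45, 7.49 and 3.21 CPM in lung and 39.3, 36.8 and 36.1 CPM in liver. The values at chr13:26792402-26793848 (1447 bp) were 213, 248, 282 and 224 CPM in brain, 3.24, 4.63, 7.49 and 4.02 CPM in lung and 49, 21.1 and 28 CPM in liver. For chr3:73477010-73477838 brain gave 186, 205, 306 and 238 CPM, lung 2.22, 4.8, 5.99 and 8.03 CPM and liver 33.3, 21.1 and 36.1 CPM. In these 3 peaks lung was at a few CPM, every liver library was above every lung library, and brain was above both without overlap. In chr5:39828691-39829736 (1046 bp) the level was 207, 238, 339.8 and 257 CPM in brain, 79.6, 69.3, 66.6 and 77.1 CPM in lung and 37.9, 34 and 43.6 CPM in liver. Here the order of the other tissues was turned, with every lung library above every liver library.

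The peaks with the largest factor had lower brain levels. At chr1:170100695-170101235 (541 bp) the brain libraries stood at 30.5, 36, 32.4 and 26 CPM, the lung libraries at 1.71, 1.49, 0 and 0 CPM and the liver libraries at 2.77, 0.919 and 1.08 CPM. Its factor of 15.2 was the largest of the set. The liver mean set that factor and rested on only 10 reads over the 3 liver libraries, so the factor is imprecise. Its lung level was 0 reads in both shallow lung libraries, where 3 reads would be 2.25 and 2.41 CPM. Reads at chr11:110861076-110861943 (868 bp) came to 56.3, 74.8, 76.7 and 54.7 CPM in brain, 1.02, 3.8, 1.5 and 4.82 CPM in lung and 6.47, 0.919 and 5.39 CPM in liver. The values at chr17:61664907-61665551 (645 bp) were 35.3, 40.7, 69.4 and 39.9 CPM in brain, 2.05, 1.32, 2.99 and 0 CPM in lung and 1.85, 3.22 and 4.31 CPM in liver. Their factors were 13.9 and 12.9, set by liver means that rested on 26 and 19 reads, and brain 3 was the highest library in both. For chr9:50886994-50887474 (481 bp) brain gave 35.9, 37, 28.6 and 29.2 CPM, lung 2.39, 1.65, 1.5 and 0 CPM and liver 1.39, 1.84 and 4.31 CPM. In chr13:94457004-94457855 (852 bp) the level was 65.9, 74.6, 80.3 and 68.3 CPM in brain, 4.1, 4.47, 1.5 and 7.23 CPM in lung and 7.4, 4.6 and 7 CPM in liver. At chr10:24831312-24832110 (799 bp) the brain libraries stood at 43.8, 39.7, 61.6 and 47 CPM, the lung libraries at 1.88, 4.8, 4.49 and 5.62 CPM and the liver libraries at 3.7, 3.68 and 5.39 CPM. Factors of 11, 10.7 and 10.2 followed, with 15, 39 and 26 reads over the liver libraries, whose mean again set the factor. In all 6 peaks the lowest brain library lay above the highest library of lung or liver.

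The 4 brain libraries differed at the chosen peaks by more than counting error. The coefficient of variation over the brain libraries had a median of 0.203 (5th to 95th percentile 0.0742 to 0.398). Counting error at a peak's mean number of reads over these libraries had a median of 0.062. Where libraries differ in depth, as here, such a value is too low. The other autosomal peaks with a brain mean of at least 5 CPM had a median coefficient of variation of 0.208. Brain 2 was the highest brain library in 621 peaks and brain 4 in 103, while brain 1 was the lowest in 513. Reads at chr9:116127773-116128478 (706 bp) came to 42.5, 43.7, 43.2 and 42.5 CPM in brain, 7.68, 10.6, 7.49 and 8.84 CPM in lung and 14.3, 6.89 and 10.8 CPM in liver. The values at chr1:71718786-71719328 (543 bp) were 17.6, 17.8, 17.6 and 17.2 CPM in brain, 1.88, 2.15, 0 and 1.61 CPM in lung and 5.55, 1.84 and 7 CPM in liver. The brain values of these peaks were the most alike of the set. For chr7:117668630-117669284 (655 bp) brain gave 9.13, 18.7, 5 and 4.72 CPM, lung 1.71, 0.331, 1.5 and 3.21 CPM and liver 1.39, 1.38 and 4.31 CPM. In chr6:28474674-28475061 (388 bp) the level was 4.34, 10.7, 4.6 and 2.86 CPM in brain, 1.2, 1.65, 0.749 and 0.803 CPM in lung and 0.925, 0 and 2.15 CPM in liver. In both of these brain 2 stood highest, and no library was above 18.7 CPM. In lung and liver the coefficient of variation had medians of 0.463 and 0.375. Counting error at the mean number of reads had medians of 0.271 and 0.274, which is too low above all in lung, whose libraries differed most in depth. A peak held a median of only 4 to 25 reads in a lung library and 11 to 15 in a liver library. How much of the lung spread was counting is therefore not settled here.

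The lowest brain library was above every lung and liver library in 1542 of the 1548 peaks (99.6%), against 8.63% of all autosomal peaks, and overlap was seen in 6. Since the choice of the peaks used these values, nothing is read from that share. Fewer peaks kept the 3-fold distance at the extremes: in 308 (19.9%) the lowest brain library plus 0.5 CPM was at least 3 times the highest lung or liver library plus 0.5 CPM. The edgeR quasi-likelihood test over 58293 peaks called all 1548 higher in brain than in lung, where 15% of all peaks were called, and all 1548 higher in brain than in liver, where 13.1% were called; 9.39% of all peaks were called in both. These contrasts are those of the choice, and the calls are no separate support.

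Peaks were chosen again without each library in turn, and the library left out was then read alone. In each case the other side of the comparison was still set by the rule, which the background peaks did not have to meet, so the shares describe how evenly the libraries carried the difference and support nothing more. In brain libraries left out, 68% to 89.7% of the peaks chosen without them were at least 3-fold above the lung and liver means, against 4.3% to 8.02% of all autosomal peaks with a brain mean of at least 5 CPM. In lung libraries left out, the brain mean was at least 3-fold above 85.1% to 95.7% of the chosen peaks, against 12.3% to 17.9% of that background. In liver libraries left out the shares were 59.3% for liver 3, 64.3% for liver 1 and 83.6% for liver 2, against 7.39% to 12.2%. The direction was the one of the choice in 99.4% to 100% of the chosen peaks in every library left out, against 40.3% to 61.3% of that background. Between 1362 and 1778 peaks were chosen in this way, and 1270 to 1530 of these were among the 1548.

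Values ran on smoothly across the limits of the rule. Factors from 3 to 3.1 were found in 120 chosen peaks, and factors from 2.9 to 3 in 140 peaks that were left out. At chr12:88279433-88280197 (765 bp) the brain libraries stood at 25.7, 29.5, 17.2 and 20.0 CPM, the lung libraries at 7.34, 7.44, 2.99 and 9.64 CPM and the liver libraries at 1.85, 10.6 and 9.69 CPM. Reads at chr14:100631866-100632326 (461 bp) came to 10.5, 16, 5.4 and 6.58 CPM in brain, 2.56, 3.97, 2.99 and 0 CPM in lung and 2.77, 3.68 and 2.15 CPM in liver. The values at chr2:139579170-139580018 (849 bp) were 36, 29.5, 41.6 and 37.7 CPM in brain, 3.41, 6.45, 2.99 and 0.803 CPM in lung and 10.2, 4.6 and 20.5 CPM in liver. The factor was just above the limit in the first of these and just below it in the others, and in the last of them liver 3 was the highest liver library by a wide margin. At the brain minimum, 16 chosen peaks had a brain mean under 6 CPM, and 17 peaks that met the factor had 4 to 5 CPM. For chr6:17012325-17012594 (270 bp) brain gave 6.18, 6.12, 5 and 3.14 CPM, lung 0.512, 0.992, 2.25 and 1.61 CPM and liver 0, 0 and 1.08 CPM. In chr9:70699941-70700157 (217 bp) the level was 4.68, 5.67, 5.8 and 3.72 CPM in brain, 1.02, 1.16, 2.25 and 0.803 CPM in lung and 0.925, 1.84 and 0 CPM in liver. Their brain means were 5.11 and 4.97 CPM, and no lung or liver library of either was above 2.25 CPM.

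Most of the chosen peaks were wide beside all autosomal peaks, and near in width to the others with the same brain minimum. Their median width was 656 bp (quartiles 533 and 795 bp, range 205 to 2131 bp), against 409 bp for all autosomal peaks and 612 bp for the other autosomal peaks with a brain mean of at least 5 CPM. The brain minimum acts on reads, which grow with width, so the distance from all peaks is not independent of the rule. Against the peaks with a like brain minimum the set held fewer very narrow and very wide peaks: 28 peaks (1.81%) were under 300 bp, against 2.55%, and 140 (9.04%) were over 1000 bp, against 12.7%. At a matched brain level the chosen peaks were a little narrower than the others throughout. Their median was 405 bp against 432 bp at 5 to 10 CPM, 524 against 576 at 10 to 20, 669 against 731 at 20 to 40, 789 against 863 at 40 to 80, and 1001 against 1054 above. Per kb of peak the median brain level was 42.6 CPM in the chosen peaks and 25.7 CPM in the others.

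**Figure D2:**
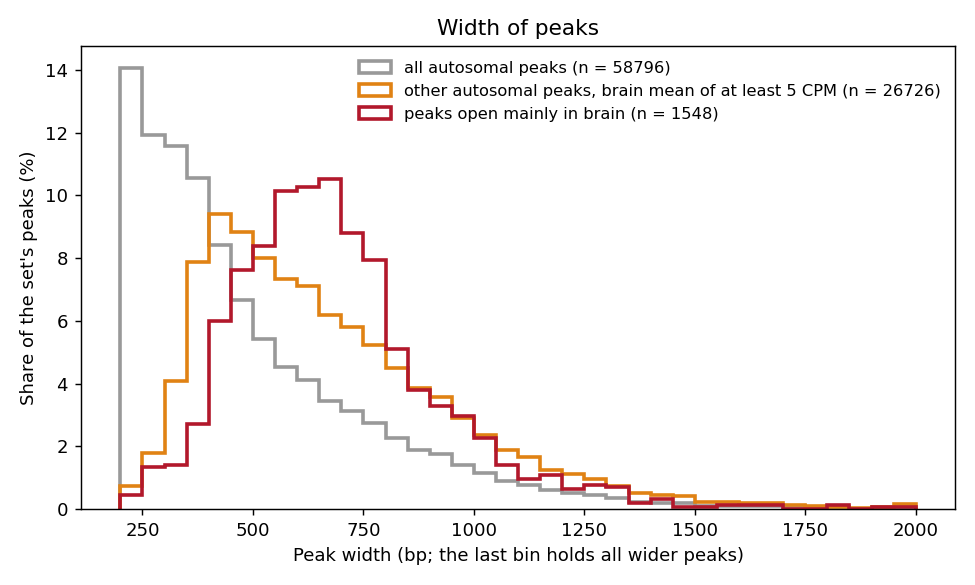
Width of peaks in bins of 50 bp, as the share of each set's peaks, for the 1548 chosen peaks, the 26726 other autosomal peaks with a brain mean of at least 5 CPM and all 58796 autosomal peaks. The chosen peaks have a median of 656 bp and few members under 300 bp.

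The widest peaks of the set were read in every tissue, and the narrowest were weak. At chr18:16966377-16968507 (2131 bp) the brain libraries stood at 174, 169, 240.0 and 223 CPM, the lung libraries at 36.9, 34.7, 62.9 and 38.6 CPM and the liver libraries at 49, 34 and 47.4 CPM. Reads at chr16:18703940-18705871 (1932 bp) came to 211, 161, 138 and 154 CPM in brain, 32.6, 24, 27.7 and 32.9 CPM in lung and 48.6, 46.9 and 43.1 CPM in liver. The values at chr7:52374955-52375164 (210 bp) were 6.68, 14.5, 5.6 and 4.72 CPM in brain, 0.512, 1.49, 2.25 and 2.41 CPM in lung and 2.31, 1.84 and 1.08 CPM in liver. For chr3:19856921-19857131 (211 bp) brain gave 5.96, 10.3, 6.2 and 5.29 CPM, lung 0.854, 1.49, 0.749 and 0 CPM and liver 3.7, 0 and 1.08 CPM. The wide peaks had over 100 CPM in each brain library, and the narrow ones at most 14.5 CPM. The share of peaks that entered the set did not rise steadily with level: it was 1.38% of the autosomal peaks at a brain mean of 5 to 10 CPM, 5.63% at 10 to 20, 10.5% at 20 to 40, 8.83% at 40 to 80 and 4.64% above 80 CPM. For comparison, the median width was 444 bp in the 624 peaks open mainly in lung and 325 bp in the 2184 open mainly in liver. The libraries differed in depth as given above, in ranges that overlapped between brain and lung and between lung and liver, and the part of depth in these widths was not tested.

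Along the chromosomes the chosen peaks lay near each other. The median distance from a chosen peak to the nearest other chosen peak was 119 kb, against 470 kb from the other autosomal peaks with a brain mean of at least 5 CPM. Within 50 kb of another chosen peak lay 562 of the 1548 (36.3%), against 13.9% of those other peaks, and within 5 kb lay 172 (11.1%), against 2.72%. The neighbour in the table, whatever its distance, was a chosen peak for 20.2% of the chosen peaks and for 4.63% of the other autosomal peaks. For 451 chosen peaks (29.1%) no other was found within 500 kb. These shares describe positions, which the rule did not use, and no test of chance was made.

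**Figure D3:**
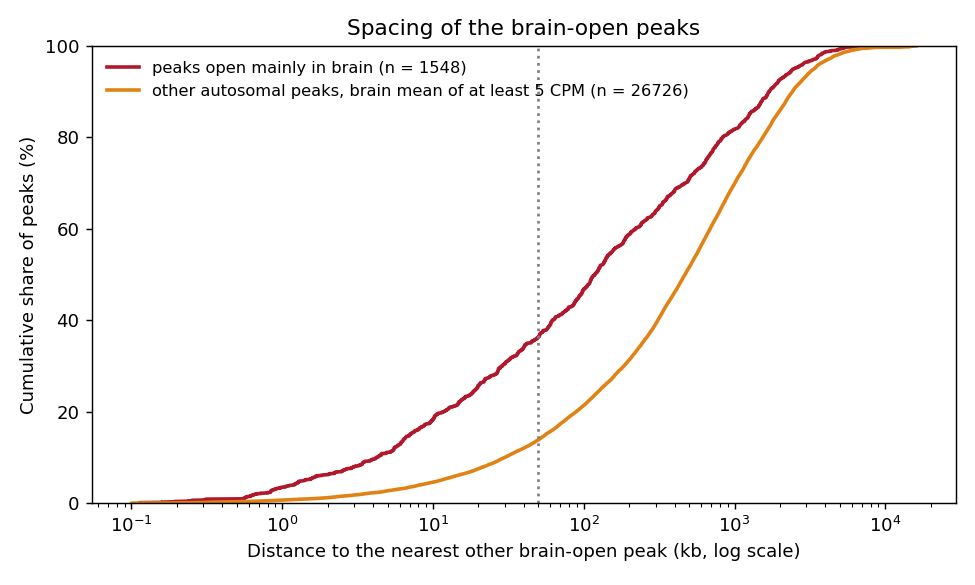
Cumulative share of peaks by the distance to the nearest other chosen peak (kb, log scale) for the 1548 chosen peaks and the 26726 other autosomal peaks with a brain mean of at least 5 CPM. The dotted line marks 50 kb, which 36.3% of the chosen peaks and 13.9% of the others reach.

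Every autosome held such peaks. They made up 1.65% of the peaks on chromosome 11, the lowest share, and 3.28% on chromosome 12, 3.26% on chromosome 16 and 3.2% on chromosome 13, the highest. Of the autosomal peaks with a brain mean of at least 5 CPM they were 3.23% on chromosome 11 and 7.02% on chromosomes 12 and 16. By number, chromosome 1 held the most (126) and chromosome 19 the fewest (37).

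Chosen peaks with at most 50 kb between them were joined into chains. The 562 peaks formed 236 chains, of which 175 had 2 peaks, 42 had 3, 13 had 4, 2 had 5 and 4 had 6. A chain spanned a median of 17.4 kb and at most 107 kb. In 96 of the 236 chains (40.7%) no other peak of the table lay between the members, and the other chains held peaks outside the set as well. Peaks in chains and peaks alone were alike in width (medians 656 and 656.5 bp) and in brain level (29.5 and 27.7 CPM). The liver set had 36.4% of its 2184 peaks in chains of up to 9, and the lung set had 12.2% of its 624 peaks in chains. A larger set is closer together for that reason alone, so these shares are not set against each other. The neighbour in the table was a peak of the lung set for 10.4% of that set and for 2% of the other autosomal peaks. For the liver set these shares were 27.3% and 6.25%. Neighbours of the same set were thus more frequent within all 3 sets than outside them, and grouping was not particular to brain.

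The chain of 6 peaks with the highest summed brain level lay on chromosome 6 from 91644556 to 91688665 and spanned 44.1 kb with 3 other peaks between its members. In chr6:91644556-91645103 (548 bp) the level was 40.3, 41.3, 29.8 and 35.3 CPM in brain, 3.58, 2.48, 4.49 and 9.64 CPM in lung and 6.47, 1.84 and 7.54 CPM in liver. At chr6:91664963-91665505 (543 bp) the brain libraries stood at 42.9, 38.7, 28.6 and 28.7 CPM, the lung libraries at 11.1, 13.2, 1.5 and 6.43 CPM and the liver libraries at 6.47, 6.89 and 10.2 CPM. Reads at chr6:91670787-91671924 (1138 bp) came to 178, 118, 104 and 145 CPM in brain, 17.9, 30.4, 21.7 and 27.3 CPM in lung and 25.9, 21.1 and 25.3 CPM in liver. The third member had the highest brain level of the chain, and all 4 brain libraries were above all lung and liver libraries in each of these peaks. The values at chr6:91679039-91680279 (1241 bp) were 124, 93.9, 86.3 and 106 CPM in brain, 16.9, 21, 29.9 and 17.7 CPM in lung and 25.9, 24.8 and 21.5 CPM in liver. For chr6:91686365-91686921 (557 bp) brain gave 45.3, 44.2, 41.2 and 43.3 CPM, lung 13.1, 19.8, 9.73 and 8.03 CPM and liver 8.32, 12.9 and 4.85 CPM. In chr6:91687818-91688665 (848 bp) the level was 80.5, 54.3, 47 and 58.8 CPM in brain, 7.17, 10.7, 5.99 and 8.03 CPM in lung and 17.6, 13.8 and 11.8 CPM in liver. No member of this chain was called between lung and liver (edgeR adjusted p from 0.0805 to 0.989).

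A further chain of 6 on chromosome 6, from 36743419 to 36796410, spanned 53 kb and had lower lung levels, with sums over its members of 216 CPM in brain, 13 CPM in lung and 35.6 CPM in liver. At chr6:36743419-36744166 (748 bp) the brain libraries stood at 43, 46.3, 48.2 and 40.5 CPM, the lung libraries at 2.05, 2.65, 4.49 and 1.61 CPM and the liver libraries at 13.9, 4.14 and 13.5 CPM. Reads at chr6:36750381-36751011 (631 bp) came to 55.9, 63.9, 83.3 and 63.2 CPM in brain, 3.58, 3.64, 1.5 and 2.41 CPM in lung and 9.25, 4.6 and 11.8 CPM in liver. The values at chr6:36758311-36758934 (624 bp) were 36.8, 47.6, 56.2 and 37 CPM in brain, 0.341, 1.65, 1.5 and 1.61 CPM in lung and 7.86, 8.73 and 1.62 CPM in liver. In these 3 of its members the edgeR test called liver above lung (adjusted p = 0.00027, 0.0201 and 0.000329). The second member of the chain was the narrowest peak of the whole set. For chr6:36745762-36745966 (205 bp) brain gave 6.46, 10.4, 8.19 and 8.01 CPM, lung 1.2, 1.82, 0 and 3.21 CPM and liver 2.77, 0.46 and 1.62 CPM. In chr6:36747243-36747725 (483 bp) the level was 33.3, 40.6, 45.2 and 32.3 CPM in brain, 1.37, 2.32, 1.5 and 4.82 CPM in lung and 5.09, 1.84 and 6.46 CPM in liver. At chr6:36795986-36796410 (425 bp) the brain libraries stood at 11.6, 17, 14.2 and 14.6 CPM, the lung libraries at 2.22, 1.32, 2.99 and 2.41 CPM and the liver libraries at 0.925, 6.44 and 5.92 CPM. Liver and lung libraries overlapped in each of the latter 3, and the test called none of them. Of the called members the first and the fifth overlapped as well, with liver 2 below lung a in the first and liver 3 below lung 2 in the fifth. Chains of 6 also lay on chromosome 1 from 186650863 to 186703537 and on chromosome 6 from 141774618 to 141860609. Those of 5 lay on chromosome 14 from 97958723 to 98018587 and from 123250868 to 123319820. The brain level summed to 194 and 103 CPM in the former and to 160 and 148 CPM in the latter, against lung sums of 45.2, 13.7, 21.5 and 15.6 CPM and liver sums of 49.2, 19.6, 25.6 and 34.3 CPM.

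**Figure D4:**
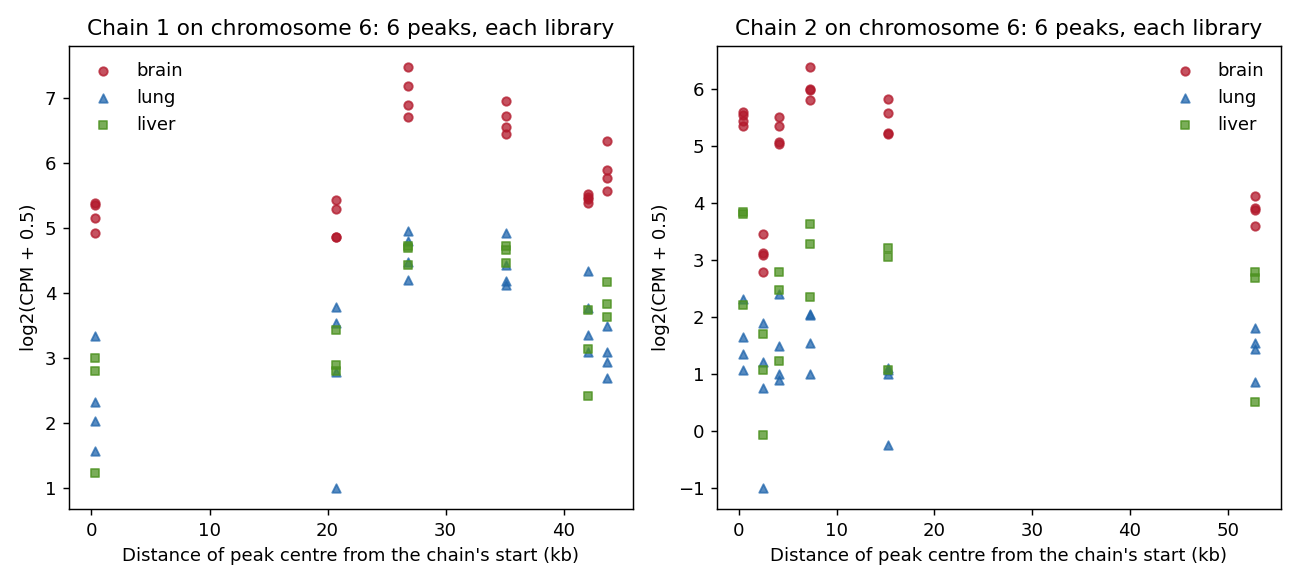
Level in every library, as log2(CPM + 0.5), of the 6 peaks in each chain, by the distance of the peak centre from the chain's start. Among the chains of 6, those with the highest and the next highest summed brain level are shown, both on chromosome 6. Points are libraries (circles brain, triangles lung, squares liver). The 4 brain libraries lie above the lung and liver libraries at every peak. In the second chain every liver library lies above every lung library only at chr6:36750381-36751011, and the libraries of these tissues overlap at the other peaks.

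Peaks outside the set that lay close to it were called higher in brain more often than those far away. Of 1077 tested autosomal peaks within 5 kb of a chosen peak, 42.2% were called higher in brain than in lung and 35.7% higher in brain than in liver, against 12.4% and 10.4% of all 55493 tested peaks outside the set. The shares fell with distance, to 23.6% and 18.9% at 5 to 50 kb (5729 peaks), 12.4% and 9.86% at 50 to 500 kb (21346 peaks) and 8.94% and 7.94% beyond 500 kb (27341 peaks). Calls in the other direction went the other way, with 6.04% lower in brain than in lung within 5 kb and 18.2% beyond 500 kb. The median log2 difference of brain over lung was 0.84 within 5 kb and −0.24 beyond 500 kb, and that of brain over liver 0.76 and −0.30. The rule had removed the peaks past its limits from all of these bins, so the shares are a description; median width differed little between them (403 to 413 bp), and the median brain level was 7.86 CPM within 5 kb and 4.56 CPM beyond 500 kb.

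The rule did not compare lung with liver, and that contrast was tested. It did cap the lung and liver levels against brain, in CPM without TMM scaling. The calls between lung and liver are therefore not free of the choice. Where lung and liver were not alike, the chosen peaks were mostly higher in liver. The edgeR quasi-likelihood test, with Benjamini-Hochberg adjustment over 58293 peaks and a fold of at least 2, called 258 of the 1548 (16.7%) higher in liver, against 8.28% of all peaks, and 9 (0.581%) higher in lung, against 5.5% of all peaks. All 1548 passed the count filter. At an unadjusted p under 0.05 in the same test, 450 were higher in liver and 45 higher in lung. The share of all peaks at that limit is not given here, so nothing is read from these counts. The median log2 difference of lung over liver was −0.47 (first quartile −0.92) over the set and −0.08 over all peaks. Of the other peaks with a brain mean of at least 5 CPM, 6.35% were called higher in liver and 6.01% higher in lung. The number called higher in liver was 160 without liver 1, and that called higher in lung was 17 without lung b, 27 without both unnumbered lung libraries and 3 when scaled by library size alone, where 357 were called higher in liver.

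**Figure D5:**
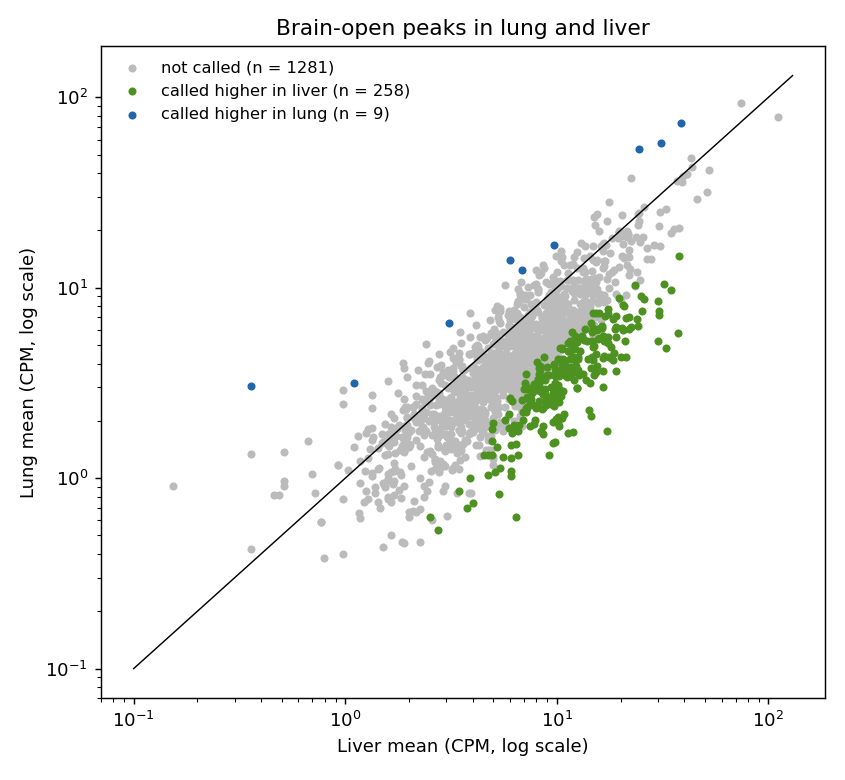
Mean level of the 1548 peaks in liver (x axis) and lung (y axis), in CPM on log scales, with a line where both are equal. Green points are the 258 peaks called higher in liver and blue points the 9 called higher in lung; most points lie below the line.

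Calls were more frequent where the brain level was high. Liver was called above lung in 1 of 133 peaks with a brain mean of 5 to 10 CPM, 15 of 368 at 10 to 20, 75 of 567 at 20 to 40, 119 of 358 at 40 to 80 and 48 of 122 above. In the other peaks with a brain mean of at least 5 CPM the share was 6.35% over all levels. Those peaks were not split by level here, so the rise is not read as a trait of the chosen peaks. Reads were fewer in the low bins, with a median lung mean of 1.37 CPM and liver mean of 1.64 CPM at a brain level of 5 to 10 CPM, against 10.6 and 21.3 CPM above 80 CPM, and the part of depth in the calls was not tested. Members of chains and peaks alone were called at similar rates, with 15.8% and 17.1% higher in liver. Of 11 chains with more than 1 called member, the calls pointed the same way in all 11. With 258 members called higher in liver and 9 higher in lung, most calls agree wherever they lie. Nothing about chains is read from this.

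The largest differences in favour of liver were in peaks that lung libraries hardly read. Reads at chr15:61384414-61385184 (771 bp) came to 65.8, 63.1, 91.9 and 90.9 CPM in brain, 2.73, 2.81, 1.5 and 0 CPM in lung and 13.9, 18.4 and 19.4 CPM in liver. Its log2 difference of lung over liver was −2.68 (SE 0.37, edgeR adjusted p = 2.11e-08). The values at chr12:95726867-95727356 (490 bp) were 11.3, 18.7, 35 and 17.2 CPM in brain, 0.512, 1.98, 0 and 0 CPM in lung and 6.01, 7.81 and 5.39 CPM in liver. It held 15 reads over the 4 lung libraries, and its log2 difference was −2.48 (SE 0.53, edgeR adjusted p = 0.000264), with values from −3.88 without lung 2 to −1.97 over the alternatives. For chr8:71301962-71302645 (684 bp) brain gave 32.1, 26.1, 48.8 and 41.7 CPM, lung 0.683, 2.32, 0 and 3.21 CPM and liver 10.2, 7.35 and 11.8 CPM. Its log2 difference was −2.45 (SE 0.44, edgeR adjusted p = 1.27e-05). The peaks on chromosomes 13, 3 and 6 with brain levels above 200 CPM in most libraries, given above, had log2 differences of −2.66 (SE 0.35, edgeR adjusted p = 4.48e-09), −2.52 (SE 0.36, edgeR adjusted p = 3.6e-08) and −2.44 (SE 0.33, edgeR adjusted p = 1.09e-08). In all 6 every liver library was above every lung library, and each was called under all 17 alternatives.

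A small number of peaks were higher in lung than in liver. In chr13:110056904-110057329 (426 bp) the level was 9.75, 13.6, 11.8 and 7 CPM in brain, 2.05, 1.49, 2.99 and 5.62 CPM in lung and 0, 0 and 1.08 CPM in liver. It held 2 reads over the 3 liver libraries, too few for a fold, and was called at an edgeR adjusted p of 0.00832, a call lost without liver 1 or liver 2. At chr13:110086232-110087182 (951 bp) the brain libraries stood at 31.6, 45.2, 55.4 and 42.9 CPM, the lung libraries at 14.2, 16.5, 17.2 and 8.03 CPM and the liver libraries at 7.4, 0.919 and 9.69 CPM. This peak was its neighbour in the set and lay within 50 kb of it, and its log2 difference of lung over liver was 1.52 (SE 0.37, edgeR adjusted p = 0.00126), a call lost without liver 2. Reads at chr7:96921848-96922950 (1103 bp) came to 156, 143, 212 and 155 CPM in brain, 56.3, 46.1, 47.9 and 63.5 CPM in lung and 25.9, 26.2 and 21 CPM in liver. Its log2 difference was 1.32 (SE 0.30, edgeR adjusted p = 0.000515), and all lung libraries were above all liver libraries. The values at chr1:10218921-10219313 (393 bp) were 18.7, 22.2, 15.2 and 12.3 CPM in brain, 1.54, 6.45, 2.99 and 1.61 CPM in lung and 1.85, 0.919 and 0.539 CPM in liver. Its log2 difference was 1.81 (SE 0.61, edgeR adjusted p = 0.0271) and fell to 0.93 without lung 2, the highest lung library, where it was no longer called; the call was also lost without liver 2 or liver 3. Lung 1 and lung b lay within the range of the liver libraries. The peak on chromosome 5, chr5:39828691-39829736, given above for its brain level, had a log2 difference of 1.15 (SE 0.30, edgeR adjusted p = 0.00284). Each of these was lost under at least 1 alternative except the peak on chromosome 7, which was called under all 17.

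The levels at the chosen peaks were also set side by side over the peaks, with the limit that the rule ties them: it kept lung and liver under a set share of brain, and liver was the higher of these in 1297 peaks. Over the 1548 peaks, log2 CPM of a liver and a brain library correlated at 0.757 to 0.836 (12 pairs), that of a pair of liver libraries at 0.654 to 0.694 (3 pairs), that of a lung and a brain library at 0.54 to 0.702 (16 pairs) and that of a pair of lung libraries at 0.501 to 0.814 (6 pairs). With every library thinned to the 1244653 reads of the shallowest, the ranges were 0.694 to 0.767, 0.589 to 0.624, 0.51 to 0.578 and 0.499 to 0.599. The points share the width of the peak, and the thinned brain libraries still held more reads at these peaks than the others, so the values are a description, and no relation of liver to brain is read from them. As a percentage of the brain mean, the median liver level was 22.5%, 24.6%, 24%, 22% and 18.5% in the bins of brain level from 5 to over 80 CPM, and the median lung level fell from 18.7% to 10.8%. The 5th percentile of the liver level was 8.45%, 14.1%, 14.4%, 13.6% and 12.9% of brain in these bins, and that of lung fell from 7.46% to 3.37%. Among all 5144 autosomal peaks with a brain mean of at least 50 CPM, liver was under 10% of brain in 2 and lung in 149. Among the 4328 with a liver mean of at least 50 CPM, brain was under 10% of liver in 15 and lung in 5. Among the 4826 with a lung mean of at least 50 CPM, brain was under 10% of lung in 29 and liver in 2. The part of depth in these levels was not tested.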

How the data were processed

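ATAC-seq reads of sorted endothelial cells were deposited as raw counts per peak in 1 table of 60119 merged peaks, with 4 brain, 4 lung and 3 liver columns. Per the submitters' processing notes the tools used in the study included MACS2, bedtools, Bowtie2, TopHat and HTSeq 0.6.1; which step each served is not given in the sources used here. Whether reads were shifted for the transposase and whether peaks were called on pooled libraries is not given in the sources used here. The peak names in the deposited counts table say that a lung library was left out of the merged set. The submitters' processing notes name mm9 and mm10, and mm9 was taken for the peaks from their chromosome names and from positions on chromosome 1 up to 197068197. RNA libraries were deposited as counts for 24176 genes and were used for the marker check alone.

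CPM were computed from column totals. Depth ran from 1244653 to 17956240 reads, so that 1 read is 0.803 to 0.0557 CPM; the reads carry no molecular identifiers. Tissue differences were tested with edgeR 4.0.16 (quasi-likelihood, TMM, filterByExpr) in R 4.3.3, in 1 fit of all 11 libraries, with Benjamini-Hochberg adjustment over 58293 peaks and calls at an adjusted p under 0.05 and a fold of at least 2. The test was tested on simulated data. DESeq2 1.42.0, other scalings and filters, other limits of the rule, other gaps, a replicate block and leaving out each library were alternatives. The peaks and marker lists were chosen with earlier results of these data known.

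Peaks named were the 12 with the highest brain mean, the 12 with the largest factor, the 3 widest and narrowest, the members of the 6 largest chains, the 6 with the largest called fold each way between lung and liver, the 3 with the highest and lowest brain coefficient of variation, and the 3 nearest each limit; the text gives part of these. A planned comparison with RNA of the nearest genes was not run, since no annotation of mm9 was used here.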

Additional observations from a re-analysis of the deposited data

Results flagged for a closer look

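Of 110 groups of 4 libraries checked at the named peaks, 4 held a library far from the other 3 by Dixon's criterion, and chance flags about 1 in 20 groups. At chr17:61664907-61665551 brain 3 stood at 69.4 CPM, against a brain mean of 46.3 CPM. At chr5:96468470-96468801 brain 3 stood at 8.59 CPM, against a brain mean of 5.23 CPM. The other brain libraries of that peak were all under the limit of 5 CPM. At chr18:16966377-16968507, the widest peak, lung a stood at 62.9 CPM, against a lung mean of 43.3 CPM. At chr6:36758311-36758934, in the second chain of 6 on chromosome 6, lung 1 stood at 0.341 CPM, against a lung mean of 1.27 CPM.

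Outside the autosomes, which the rule does not cover, 97 peaks met its limits. Of these 95 lay on chromosome X and made up 7.87% of its 1207 peaks, against 2.63% of the autosomal peaks. The sex of the animals behind each library was not compared here. Its part in the chromosome X share was not tested, and that share is not read as a trait of brain endothelium.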

How the results depend on the processing

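The number of chosen peaks was 2350 with TMM scaling, 3661 at a fold of 2, 290 at a fold of 5 and 308 when the lowest brain library had to pass against the highest other library; it was 1362 to 1778 without each library in turn. The share in chains, 36.3%, became 45.6% with TMM scaling, 39.7% and 33.7% with offsets of 0.1 and 1 CPM, 54.3% and 15.9% at folds of 2 and 5, 33.9% with a brain minimum of 10 CPM and 14.6% with the library rule. It was 27.9% and 46.7% with gaps of 25 and 100 kb, and 33.4% to 38.7% without each library. The median width, 656 bp, became 632 bp with TMM scaling, 642 and 679 bp with the offsets, 603 and 728.5 bp at the folds, 679 bp with the higher minimum, 633 bp per kb of peak and 753.5 bp with the library rule; it was 645.5 to 672 bp without each library.

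Peaks called higher in lung than in liver, 9, became 3 with library size alone and 27 without the unnumbered lung libraries, an alternative planned for this fit, and 6 to 17 without each library. Those higher in liver, 258, were 160 to 265 without each library, with the lowest value without liver 1. With library size alone the median log2 difference of lung over liver over all peaks moved from −0.08 to −0.29, and over the chosen peaks from −0.47 to −0.68. The replicate block, on numbered libraries only, called 19 higher in lung and 193 higher in liver. Deviations of libraries with the same number correlated at −0.21 to 0.162 in 7 pairs, so the numbers were not taken to pair samples. Of peaks outside the set, the neighbours next in the table were called above lung in 33.9% and above liver in 26.7%, and those within 5 kb with a mean of at least 5 CPM above liver in 43.2%. The cause of these shifts was not tested. Over the 17 alternatives 1546 to 1548 chosen peaks were called above lung and 1545 to 1548 above liver; for these contrasts the runs without the unnumbered lung libraries were added after the data were seen. Depth limits lung and liver most: lung a and lung b held a median of 4 and 5 reads per chosen peak, and 207 and 144 of the peaks had none.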
